A study of Mus musculus with 25 samples.

Results

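The genes described here are the 5 ATG8 family genes of the mouse (Map1lc3a, Map1lc3b, Gabarap, Gabarapl1 and Gabarapl2) and 5 core autophagy genes (Ulk1, Becn1, Atg4a, Atg9a and Wipi1), chosen by name. Of these 10 genes, 9 had a row in the table of 8829 genes, and Atg9a was not analysed here. Gene expression was measured in the gastrocnemius, the large calf muscle, of male SAMP8 mice, a strain selected for accelerated aging, by QuantSeq, which sequences the 3′ ends of polyadenylated transcripts. All mice were 8 months old when treatment started. The Control group (11 mice) received vehicle, corn oil. The Thymol group (14 mice) received thymol, a monoterpenoid phenol of thyme and oregano, in the same oil at 20 mg per kg per day. Both were given by oral gavage for 3 months, on 5 days of each week. Each mouse gave 1 library, and these samples include no untreated, younger or other-strain mice, so that every level below is that of an aging SAMP8 muscle under gavage.

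Autophagy encloses cytoplasm in a double membrane, the autophagosome, and delivers it to the lysosome. The ULK1 kinase starts the process, a lipid kinase complex built on Beclin 1 (encoded by Becn1) marks the forming membrane with phosphatidylinositol 3-phosphate, WIPI proteins read that mark, and the vesicles that carry ATG9A supply lipid. ATG4 proteases trim the small ubiquitin-like ATG8 proteins, which are then linked to phosphatidylethanolamine in the membrane, where they hold cargo receptors and help the autophagosome close and fuse. Skeletal muscle relies on this pathway to renew mitochondria and contractile protein, and much of its control acts on proteins, which an mRNA measurement does not see.

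The libraries held 4463818 to 9463418 reads over the genes of the table (median 7503259). Mitochondrially encoded transcripts took between 22% and 33.9% of these reads. The 8 skeletal muscle markers (Acta1, Ckm, Myh4 and others) were all present, with a summed level of 99200 to 135000 CPM (reads scaled to a common library size) in Control and 102000 to 137000 CPM in Thymol. The 8 markers of slow fibres (Myh7, Tnnt1, Myl2 and others) differed far more between mice, with a summed level of 871 to 7090 CPM in Control and 87.9 to 8850 CPM in Thymol. The part of this difference in the results below was tested only where a fit with the slow fibre level is given.

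The ATG8 genes spanned more than 3 log2 units. Map1lc3a, which encodes LC3A, was the highest of the 9 genes. Its level in Control was lowest at 7.37, with a median of 7.72 and a highest value of 8.26 on the log2 CPM scale. In Thymol the lowest, median and highest values were 7.45, 7.80 and 8.14, so the groups overlapped almost entirely. Map1lc3b encodes LC3B, the ATG8 protein most often used to count autophagosomes. It ran from 6.87 through a median of 7.08 to 7.28 in Control and from 6.95 through 7.11 to 7.47 in Thymol. Only Thymol mouse 26 lay above the range of the Control mice.

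Gabarap, the founding gene of the GABARAP branch, had values of 6.14, 6.36 and 6.61 (lowest, median and highest log2 CPM) in Control. In Thymol these were 6.31, 6.46 and 6.65. Gabarapl1, a GABARAP paralog abundant in muscle and brain, had values of 5.10, 5.46 and 5.79 in Control and of 5.09, 5.34 and 5.96 in Thymol. Its highest mice were Thymol 6 (5.96), Thymol 7 (5.83), Control 14 (5.79) and Thymol 30 (5.77), and its lowest were Thymol 28 (5.09) and Control 23 (5.10). Gabarapl2, also called GATE-16, was the lowest ATG8 gene, with values of 4.21, 4.63 and 4.81 in Control and of 4.17, 4.48 and 4.82 in Thymol. In none of the 5 genes did the groups separate.

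Of the other genes, Ulk1 encodes the kinase that starts autophagy, and its levels were 6.19, 6.35 and 6.54 (lowest, median and highest log2 CPM) in Control and 5.70, 6.29 and 6.50 in Thymol. Thymol mice 11 (5.70), 21 (5.92) and 28 (5.96) lay below every Control mouse. Becn1 was at 5.13, 5.33 and 5.57 in Control and at 5.13, 5.38 and 5.65 in Thymol. Wipi1, which encodes a reader of phosphatidylinositol 3-phosphate, was at 6.19, 6.35 and 6.57 in Control and at 6.12, 6.37 and 6.54 in Thymol. Here too 3 Thymol mice, 28 (6.12), 21 (6.14) and 3 (6.18), lay below every Control mouse. Atg4a, a protease that acts mainly on GABARAP-type proteins, was the lowest of the 9 genes, at 2.92, 3.39 and 3.77 in Control and at 3.26, 3.57 and 3.82 in Thymol. It was read by 32 to 115 reads per library, against 887 to 2348 reads for Map1lc3a.

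**Figure D1:**
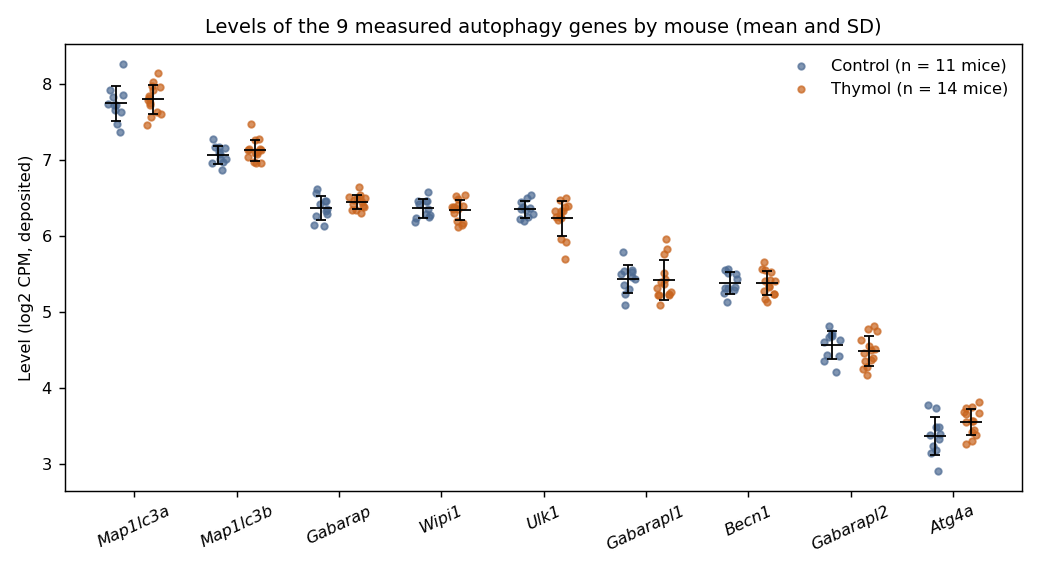
Deposited log2 CPM of the 9 genes on the vertical axis, 1 point per mouse, with Control (11 mice) and Thymol (14 mice) side by side and black bars for the mean and SD. Map1lc3a sat highest, between 7.37 and 8.26, Atg4a lowest, between 2.92 and 3.82, and the points of the 2 groups overlapped in every gene.

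Because QuantSeq gives about 1 fragment per transcript end whatever the transcript length, levels were compared between genes without dividing by length. By mean level the order was Map1lc3a (7.77), Map1lc3b (7.10), Gabarap (6.41), Wipi1 (6.35), Ulk1 (6.28), Gabarapl1 (5.43), Becn1 (5.38), Gabarapl2 (4.52) and Atg4a (3.48), all in log2 CPM over 25 mice. The median gene of the table stood at 4.09. Map1lc3a exceeded Map1lc3b in 25 of 25 mice, by 0.67 ± 0.23 (SD), and Map1lc3b exceeded Gabarap in 25 of 25. Neighbours in this order did not always differ beyond the spread between mice. The difference between Gabarap and Wipi1 was 0.06 ± 0.20 (Gabarap higher in 14 of 25 mice), and that between Wipi1 and Ulk1 was 0.07 ± 0.18 (Wipi1 higher in 15 of 25). Gabarapl1 and Becn1 likewise could not be ordered, with a difference of 0.05 ± 0.29 and Gabarapl1 higher in 12 of 25 mice. Gabarapl2 exceeded Atg4a in 25 of 25 mice.

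As shares of the summed CPM of the ATG8 family, Map1lc3a held 43.06% ± 3.7 among the 11 Control mice and 43.19% ± 3.12 among the 14 Thymol mice (mean ± SD). Map1lc3b held 26.94% ± 1.57 and 27.17% ± 3.04, Gabarap 16.58% ± 1.67 and 16.97% ± 1.51, Gabarapl1 8.676% ± 0.972 and 8.34% ± 1.38, and Gabarapl2 4.742% ± 0.679 and 4.329% ± 0.54. The shares of the groups differed by less than 1 SD for each of the 5 genes. The summed level was 500.6 ± 51.0 CPM in Control and 516.4 ± 36.8 CPM in Thymol. Across single mice the share of Gabarapl1 ran from 6.788% (Thymol mouse 3) to 10.72% (Thymol mouse 6).

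The spread between mice exceeded what read counting alone gives in every gene. Within groups the SD of Map1lc3a was 0.21 log2 units, 5.83 times its counting SD. For Gabarapl1 it was 0.23, or 2.81 times the counting SD. At the other end, the SD of Atg4a was 0.21 and only 1.29 times its counting SD, and its counting variance was 60.6% of its variance between mice. Over the 9 genes the median ratio was 2.19, beside 2.06 over all genes.

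The position of each gene bears on its counts. On mouse GRCm38 with the GENCODE annotation, Map1lc3a lies at chr2:155276297-155278073 (plus strand) and Gabarap at chr11:69991143-69994951 (plus strand), and neither shares exon bases with another gene or transcript-end sequence with another transcript. Becn1 lies at chr11:101285952-101302286 (minus strand), where 3104 of its exon bases also belong to Cntd1 on the other strand, and Gabarapl1 at chr6:129533160-129542346 (plus strand) shares 570 with the antisense transcript 1700101I11Rik. The strand setting of the counting is not given in the sources used here, so reads of these pairs may not be told apart. The end of Atg4a (chrX:140956907-141164270, plus strand) is shared in 53.3% of its words of 31 bases with the pseudogene Atg4a-ps, that of Map1lc3b (chr8:121590361-121598760, plus strand) in 15.8% with pseudogenes such as Gm6055, and that of Gabarapl2 (chr8:111940703-111953612, plus strand) in 11.6% with pseudogenes such as Gm3724. These are shares of words and not of reads. How many reads this affects was not tested, so the levels of these genes are uncertain by an unknown amount. Ulk1 lies at chr5:110784488-110810097 and Wipi1 at chr11:109573331-109611967, both on the minus strand, with under 1% of their ends shared.

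Gabarapl1 is the gene to which most of the co-variation below refers, and the 218 bases before its GENCODE start, at chr6:129532942-129533159 on the plus strand (RefSeq promoter window, GRCm38.p6), are shown for that reason, with the GC box GGGCGG, the core bound by SP1-type factors, in capitals. RefSeq places the start 32 bases further on, and its window holds 2 GC boxes, of which 1 lies in the stretch shown.
Gabarapl1: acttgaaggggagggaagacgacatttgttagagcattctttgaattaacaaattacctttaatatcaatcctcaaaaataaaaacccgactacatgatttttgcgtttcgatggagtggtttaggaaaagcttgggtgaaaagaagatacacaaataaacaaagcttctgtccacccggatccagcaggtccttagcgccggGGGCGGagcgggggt
RefSeq gave promoter windows, from 250 bases before to 50 bases after a start, for 8 of the 10 genes, 9 windows in all. Searched on both strands, the E-box core CACGTG, part of the element read by TFEB, and the FoxO site GTAAACA, read by the muscle regulators FOXO1 and FOXO3, were in the windows of 0 of the 8 genes. Over all 32851 windows they were in 7.15% and 3.65%. GGGCGG was in windows of 6 of the 8 genes (Ulk1, Gabarapl1, Gabarapl2, Map1lc3b, Wipi1 and 1 of the 2 windows of Atg4a) and in 35.7% of all windows. No match says only that these letters were not in these windows.

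The first comparison asked whether 3 months of thymol changed the mRNA of these genes. No gene of the 9 passed the test, and each estimated difference was smaller in size than the SD between mice within groups. Atg4a came nearest to it, with 0.19 log2 units against an SD of 0.21. Gabarap had 0.08 against 0.12 and Ulk1 -0.12 against 0.19, so the test leaves such differences unresolved. With limma and Benjamini-Hochberg adjustment over the 8829 genes, 0 genes (0%) had an adjusted p under 0.05, the smallest being 0.741. At an unadjusted p under 0.05 there were 312 genes (3.53%), 162 higher and 150 lower in Thymol, and 0 of the 9 genes described here were among them. In bulk muscle, fewer cells of a type and less RNA per cell cannot be told apart.

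Among the ATG8 genes, the log2 fold change (Thymol minus Control) was 0.05 ± 0.08 (SE) for Map1lc3a, with a 95% interval of -0.11 to 0.22, which corresponds to a change between -7.44% and 16.4%. It was 0.05 ± 0.06 for Map1lc3b (interval -4.08% to 12.3%) and 0.08 ± 0.06 for Gabarap (interval -2.14% to 14.4%), where 11 of 14 Thymol mice lay above the Control median. Gabarapl1 had an estimate of -0.02 ± 0.09 (interval -13.1% to 12.2%), and 4 of 14 Thymol mice lay above the Control median. For Gabarapl2 the estimate was -0.08 ± 0.08 (interval -15.8% to 6.37%). The intervals thus reached from a fall by 15.8% to a rise by 16.4%, and changes inside them could not be told from 0 with these mice.

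In the core genes, Atg4a had the largest estimate of the 9, 0.19 ± 0.09 (SE), with an interval of -0.445% to 30.2%, an unadjusted p of 0.0576 and an adjusted p of 0.9999 (limma). Its level was above the Control median in 11 of 14 Thymol mice and above every Control mouse in 1. This difference rested on few reads and on the settings. Its unadjusted p fell to 0.0404 without the mean-variance trend and to 0.0360 with sample weights, rose to 0.091 with log2 depth as covariate and to 0.353 with a block by first title number (estimate 0.126), and ran from 0.0211 to 0.132 when each mouse was left out in turn, while its adjusted p was at least 0.997 throughout. Ulk1 had an estimate of -0.12 ± 0.07 (interval -17.1% to 2.19%, p = 0.116 by limma), with the 3 lowest Thymol mice below the range of the Control mice. For Becn1 the estimate was -0.01 ± 0.07 (interval -9.23% to 9.29%) and for Wipi1 -0.02 ± 0.06 (interval -9.08% to 6.85%). Wipi1 also had 3 Thymol mice below every Control mouse, so this was not particular to Ulk1.

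**Figure D2:**
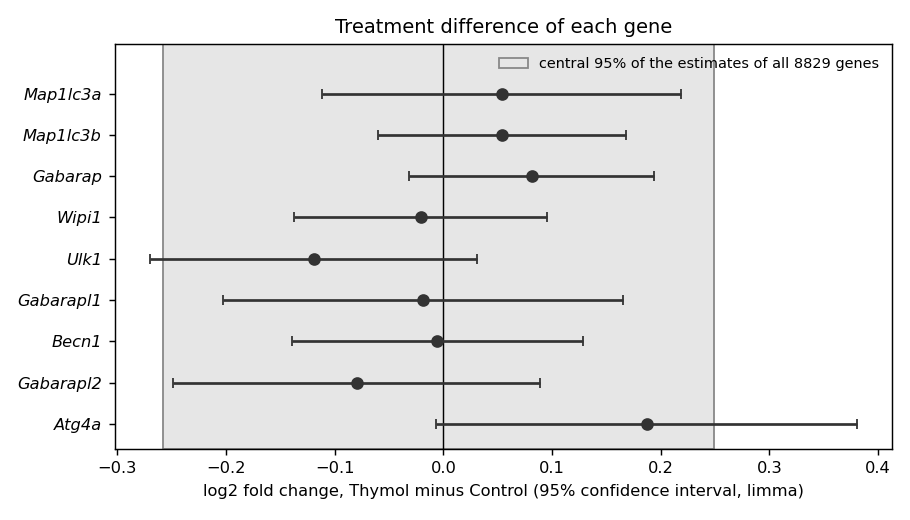
Estimated log2 fold change, Thymol minus Control, of the 9 genes on the horizontal axis, with 95% confidence intervals from limma and a grey band for the central 95% of the estimates of all 8829 genes (-0.26 to 0.25). All 9 intervals include 0, and Atg4a, whose interval begins at -0.01, lies farthest from it.

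The rest of the pathway was covered by lists that hold 87 genes, 83 of them in the table. Of the 74 listed genes that are not among the 9, 2 had an unadjusted p under 0.05, or 2.70%, beside 3.53% of all genes, and none had an adjusted p under 0.05. Wipi2, which recruits the ATG16L1 complex to the forming membrane, had an estimate of 0.15 ± 0.06 (SE, p = 0.0129, adjusted p = 0.9999 by limma). Its level was 4.22, 4.52 and 4.70 log2 CPM (lowest, median, highest) in Control and 4.52, 4.68 and 4.82 in Thymol. All 14 Thymol mice lay above the Control median and 6 lay above every Control mouse. Its p was under 0.05 in 25 of the 25 fits that left out a mouse, but reached 0.114 among the other settings. Atg3, the E2-like enzyme that links ATG8 proteins to the lipid, had an estimate of 0.22 ± 0.10 (p = 0.0434, adjusted p = 0.9999 by limma), with 7 Thymol mice above every Control mouse. Its p was under 0.05 in 13 of 25 fits that left out a mouse.

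The lists were also described by role, beside a median log2 fold change of -0.00139 and a median absolute log2 fold change of 0.068 over all genes. The median was 0.0536 for the 5 ATG8 genes (3 positive), -0.00562 for the 3 measured ATG4 proteases, 0.0124 for the 5 genes of the ULK complex and -0.0192 for the 7 measured genes of the lipid kinase complex. It was 0.0461 for the 8 measured genes of the ATG9 and WIPI module, 0.00453 for the 7 conjugation enzymes and -0.0267 for the 14 fusion genes. For the 7 cargo receptors, among them Sqstm1, it was -0.0625, with 5 of 7 negative. It was -0.0896 for the 7 transcription factors, with 6 of 7 negative, and 0.0281 for the 20 lysosomal genes, with 11 of 20 positive. The median of the transcription factors was thus farther from 0 than that of the other lists, but no test of a list was made. None of these lists had a gene lower in Thymol at an unadjusted p under 0.05. The genes with the smallest p where no gene reached that mark included Uvrag of the lipid kinase complex (-0.22 ± 0.12, p = 0.0845 by limma), Calcoco1 of the receptors (-0.15 ± 0.09, p = 0.0887), Ykt6 of the fusion genes (-0.14 ± 0.09, p = 0.131) and Zkscan3, a repressor of autophagy genes (-0.17 ± 0.11, p = 0.119).

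The second question was whether the genes rise and fall together between mice. No pair passed the test. After removal of the group means, the 36 pairs had a median Pearson r of 0.127, with 25 pairs positive and a range of -0.21 to 0.501. Over all gene pairs of the table the median was -0.00111, and 49.8% were positive. An absolute r of at least 0.4 occurred in 4 of the 36 pairs and in 7.48% of all gene pairs. The 10 pairs within the ATG8 family had a median r of 0.15 and ran from -0.11 (Map1lc3b with Gabarapl1) to 0.347 (Map1lc3a with Gabarapl1). These values pool the groups, which could differ. Map1lc3b with Gabarapl1 had r = 0.636 within Control and -0.451 within Thymol, and Map1lc3a with Gabarapl1 had 0.15 and 0.495.

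The highest of the 36 was Gabarapl1 with Wipi1, with r = 0.501 (permutation p = 0.0135) and Spearman's rho = 0.486 (permutation p = 0.0165). It was 0.127 within Control and 0.685 within Thymol, and 0.394 without Thymol mice 6 and 7, the farthest from the Gabarapl1 median. Ulk1 with Becn1 followed, with r = 0.437 (permutation p = 0.0355) and rho = 0.346 (permutation p = 0.102), and with r = 0.293 when the 2 mice farthest from the Ulk1 median were left out. The sign differed between groups, with r = -0.163 within Control and 0.663 within Thymol. Gabarapl2 with Atg4a had r = 0.407 (permutation p = 0.0446) and rho = 0.378 (permutation p = 0.0682), and r = 0.353 without 2 mice. Within Control r was 0.659 and within Thymol 0.168. In a limma fit with the level of 1 gene as covariate beside treatment, adjusted over the 8828 other genes, 0 of the 36 pairs passed in both directions, and the smallest adjusted p of a pair was 0.306. Of the 36 pairs, 3 had a permutation p under 0.05, and with ranks (Spearman) or ordinary regression in place of limma the number of pairs called was again 0.

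**Figure D3:**
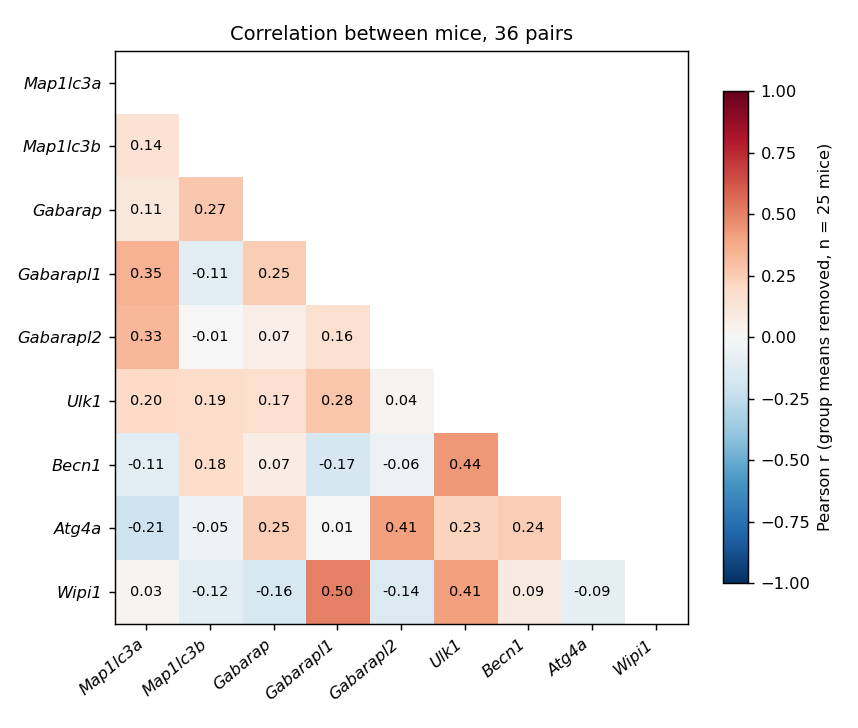
Pearson r between mice for the 36 pairs of the 9 genes, after removal of group means (25 mice), on a colour scale from -1 to 1 with the value in each cell. Most cells are pale, the strongest being Gabarapl1 with Wipi1 at 0.50 and Ulk1 with Becn1 at 0.44.

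Gabarapl1 was the only gene of the 9 whose level other transcripts followed at an adjusted p under 0.05. With its level as covariate, 123 of the 8828 other genes (1.39%) had an adjusted p under 0.05, 73 in the same direction and 50 in the opposite direction. For each of the other 8 genes the number was 0 (0%), with 364 to 716 genes at an unadjusted p under 0.05 against 1084 for Gabarapl1. Across 36 settings the other 8 genes stayed at 0, other than Ulk1, which reached 2 genes without Thymol mouse 11. By a plain count of genes with an absolute r of at least 0.6, Gabarapl1 had 160, more than 95.5% of all genes in the table, and the median gene had 26. Gabarap had 38, Map1lc3a 26, Wipi1 24, Ulk1 23, Map1lc3b 21, Atg4a 15, Gabarapl2 11 and Becn1 10. None of the 123 was 1 of the 9 genes, and 0 of the 82 other genes of the autophagy lists were among them.

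The number of genes called was not stable. It was 38 without Thymol mouse 6, 43 without Control mouse 14, 62 without Thymol mouse 30 and 64 without Control mouse 23, and at most 159 (without Thymol mouse 20). It was 78 with ranks, 72 with ordinary regression and 74 without Thymol mice 6 and 7, the farthest from the Gabarapl1 median. With the mitochondrial share as a further covariate it was 68, and with the slow fibre level it was 28, of which 22 were among the 123. Gabarapl1 itself had an r of 0.471 with the slow fibre level (permutation p = 0.0325), a rho of 0.525 (permutation p = 0.00909) and an r of 0.573 without the 2 mice farthest from the median of that level, but the adjusted p of r was 0.768 over the 108 relations with library measures described last.

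Lpl and Rcan1 were among the 3 genes most like Gabarapl1 by Pearson r. Lpl encodes lipoprotein lipase, which frees fatty acids from circulating triglyceride. Its level ran from 8.55 log2 CPM in Thymol mouse 28, the lowest for Gabarapl1 too, to 10.06 in Control mouse 14. Its r was 0.804 (permutation p = 1e-05, the smallest the permutations can give), with rho = 0.774 (permutation p = 2e-05), and its adjusted p was 0.000506 (limma). Within Control r was 0.683, within Thymol 0.857, and without Thymol mice 6 and 7 it was 0.738. Each log2 unit of Gabarapl1 went with 1.46 log2 units of Lpl. Rcan1, an inhibitor of calcineurin whose own transcript responds to it, had r = 0.77 (permutation p = 0.00011), rho = 0.698 (permutation p = 0.00026) and an adjusted p of 0.00167 (limma). Its highest level, 7.39, was in Thymol mouse 6, and without Thymol mice 6 and 7 r was 0.616 and the adjusted p was 0.0565, so that it no longer passed.

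Of 13 listed partner genes (regulators and effectors of muscle autophagy and atrophy, Fos and the slow myosin Myh7), 1 passed, beside 1.39% of all other genes. This list was chosen with earlier results of these data known, so it is not an independent prediction. Bnip3, a mitophagy receptor that binds ATG8 proteins, had r = 0.764 (permutation p = 1e-05) and rho = 0.75 (permutation p = 3e-05), with r = 0.857 within Control and 0.749 within Thymol. Its adjusted p was 0.00417 (limma), and r was 0.81 without Thymol mice 6 and 7. Its level was lowest in Thymol mouse 28 (6.21) and highest in Control mouse 14 (7.30), the mice that were lowest and, after Thymol mice 6 and 7, highest for Gabarapl1. The related receptor gene Bnip3l had r = 0.0825. FoxO factors are known regulators of Gabarapl1 and Bnip3 in muscle. The transcripts of the 2 listed here had r = 0.312 (Foxo1) and 0.229 (Foxo3), with adjusted p of 0.52 and 0.726 by limma. Foxo4, outside the 13, went the other way, with r = -0.446 (permutation p = 0.0357) and an adjusted p of 0.312 (limma). The atrophy ubiquitin ligases had r = -0.0725 (Fbxo32) and 0.000387 (Trim63). Ctsl, a lysosomal protease, had r = 0.582 and an adjusted p of 0.0868, and Tfeb, the regulator of lysosomal genes, had r = -0.543 and an adjusted p of 0.236 (limma). The autophagy receptor Sqstm1 had r = 0.178, Pink1 0.334 and Ppargc1a 0.307, and none of these passed.

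Fibre type genes were among those called. Myh4, the fast IIb myosin heavy chain, fell as Gabarapl1 rose, with r = -0.818 (permutation p = 1e-05), rho = -0.774 (permutation p = 1e-05) and an adjusted p of 0.00292 (limma), and r was -0.78 without Thymol mice 6 and 7. It was highest in Control mouse 31 (15.39) and lowest in Control mouse 14 (14.38). Actn3, the fast fibre alpha-actinin, fell likewise (r = -0.623, adjusted p = 0.0373 by limma). These were the 2 called of the 8 skeletal muscle markers. Of these 8, 3 had a positive r (Des 0.398, Acta1 0.161 and Myl1 0.156), and the median was -0.465. Of the 8 slow fibre markers, 1 was called, Myoz2 (r = 0.596, adjusted p = 0.0372 by limma), and all 8 had a positive r, with a median of 0.45, beside -0.000143 over all genes. The call of Myoz2 depended on the setting. Its adjusted p was 0.0781 with ranks and 0.113 with ordinary regression. In limma it was 0.0907 with the mitochondrial share and 0.233 with the slow fibre level, which includes Myoz2. It still passed with other scaling, with log2 depth as covariate and without Thymol mice 6 and 7. Of the other myosin heavy chains, Myh7 (slow), from the lists, had r = 0.416. Myh2 (IIa) and Myh1 (IIx), chosen after their values were seen, had r = 0.491 and 0.268, and none of these passed. Of 7 adipocyte markers, 0 were called and 7 had a positive r, with a median of 0.356, and their summed level ran from 303 to 2410 CPM in Control and from 320 to 2150 CPM in Thymol. For leukocyte markers the median r was -0.0087 and for fibroblast markers 0.0349, with 0 called in either. Over all other genes 1.39% were called, so 0 called in a list this short says little. The part of fat content in these results was not tested. That of slow fibre content was tested only by the fit with the slow fibre level. This level is the mean of the 8 slow fibre markers and does not measure the fast IIb, IIx and IIa fibres. The part of their content was not tested.

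Some further genes of the 123, picked after their values were seen, are named here for their roles. Sorbs2, an adaptor of the Z-disc, had the largest absolute r (-0.833, adjusted p = 0.000506 by limma), followed by Myh4 and by Mybpc2, the fast myosin-binding protein C (-0.815). Acsl1, which activates fatty acids, had r = 0.748, Dgat2, which makes triglyceride, 0.711, and Cd36, a fatty acid carrier, 0.674. Pygm, the muscle glycogen phosphorylase, had r = -0.727 and Gbe1, the glycogen branching enzyme, 0.647. No list of lipid or glycogen genes was counted, so these genes stand for themselves and not for a pathway. With the slow fibre level as covariate, Lpl (adjusted p = 0.0125), Rcan1 (0.0139), Acsl1 (0.0368), Dgat2 (0.0139), Myh4 (0.021), Mybpc2 (0.0125) and Sorbs2 (0.0125) still passed in limma, and Bnip3 (0.0615) and Cd36 (0.149) did not. Of these 9 genes, Rcan1 alone did not pass without Thymol mice 6 and 7.

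**Figure D4:**
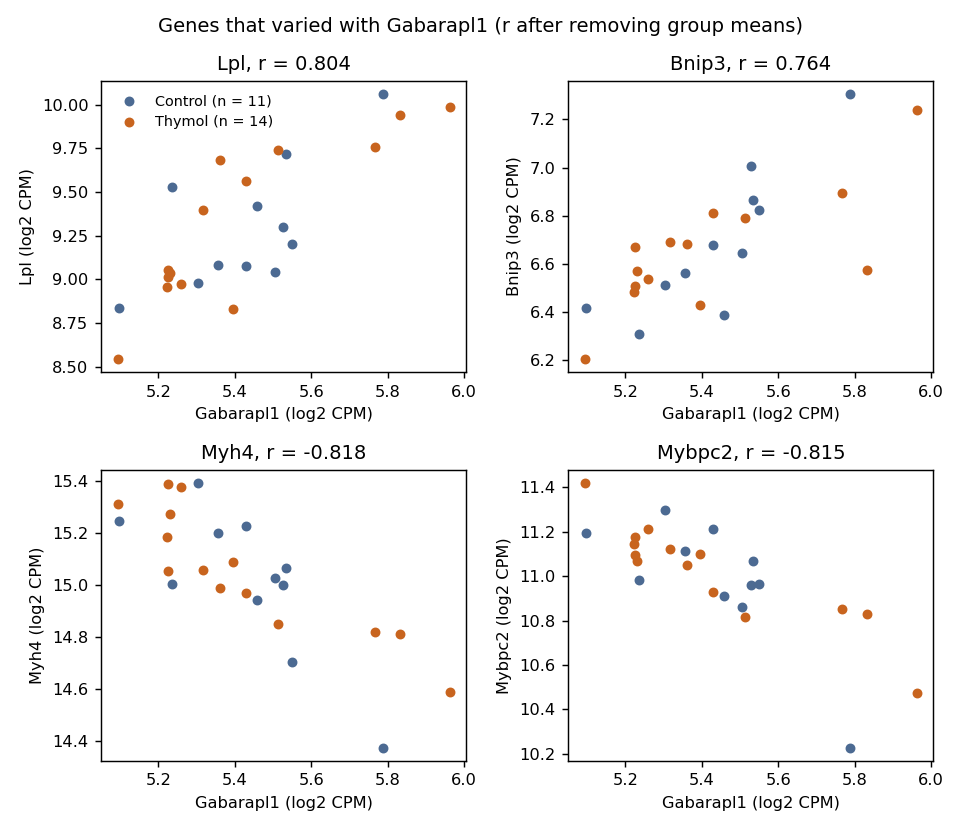
Level of Lpl, Bnip3, Myh4 and Mybpc2 (log2 CPM, vertical axes) against that of Gabarapl1 (log2 CPM, horizontal axes), 1 point per mouse, 11 Control and 14 Thymol. Lpl and Bnip3 rise with Gabarapl1 (r = 0.804 and 0.764) and Myh4 and Mybpc2 fall (r = -0.818 and -0.815), and 4 mice stand to the right of the rest, at 5.77 to 5.96 for Gabarapl1.

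Whether the relations differed between the groups was tested with a different slope on Gabarapl1 in each group. This called 1 of 8828 genes (0.0113%) by limma, with an adjusted p of 0.0119, and 498 genes (5.64%) had an unadjusted p under 0.05. Of the 123 genes, 5 had an unadjusted p under 0.05, a share no larger than that of all genes. Of the 123, 1 had an unadjusted p under 0.05 for Thymol against Control by limma, beside 3.53% of all genes. The treatment estimates of the partners were 0.03 ± 0.15 (SE) for Lpl, -0.03 ± 0.10 for Bnip3 and 0.04 ± 0.10 for Myh4.

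**Figure D5:**
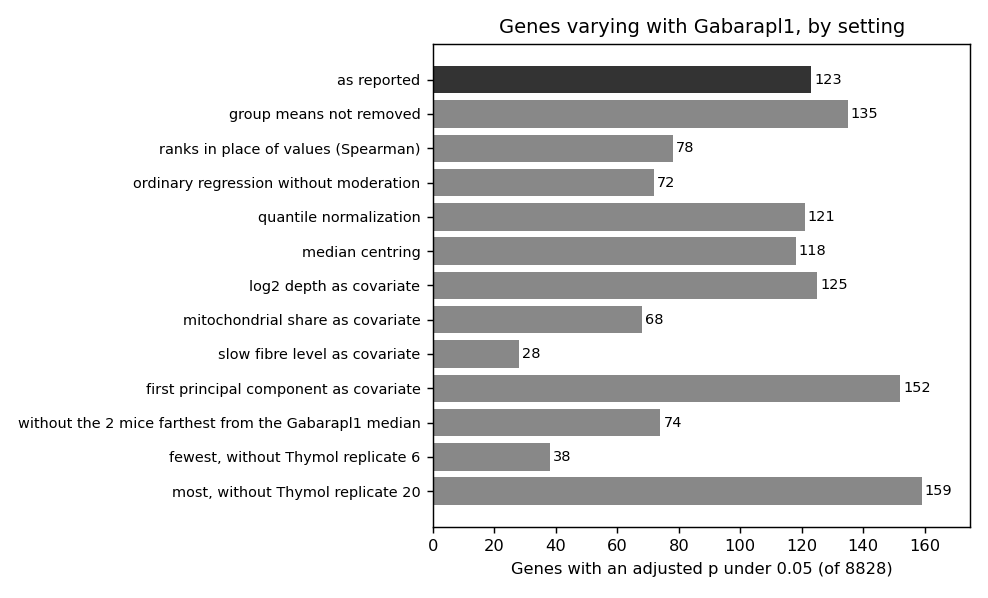
Number of genes, of 8828, with an adjusted p under 0.05 with the level of Gabarapl1 as covariate (horizontal axis, starting at 0), as reported (dark bar) and under each other setting, with the fewest and the most genes among the fits that left out 1 mouse. The count is 123 as reported, falls to 28 with the slow fibre level and to 38 without Thymol mouse 6, and reaches 159 without Thymol mouse 20.

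For the other 8 genes the most similar transcripts had lower correlations and none passed the adjusted test. Map1lc3a was closest to Lnpep (r = 0.663), Pnrc1 (0.658) and Prxl2a (0.656). Map1lc3b was closest to Ppp1r7, a regulatory subunit of protein phosphatase 1 (0.719), Mtdh (0.659) and Arl4a (0.633). Gabarap was closest to the ribosomal protein genes Rps3 (0.727) and Rps26 (0.714) and to the interleukin 6 receptor gene Il6ra (0.695). Gabarapl2 was closest to Smg6 (0.676), Nfkb2 (0.636) and Hs6st1 (0.625). Ulk1 was closest to Tmbim4 (0.676), Dpm1 (0.671) and Gid8 (0.656). Becn1 was closest to Tsc1, a brake on mTORC1 (0.672), Slc35a3 (0.631) and Scarb2, a lysosomal membrane protein (0.629). Atg4a was closest to Hspbp1 (0.66), Rnf121 (0.635) and Cks1b (0.628), and Wipi1 to Slc35b4 (0.739), Nit1 (0.682) and Fsd1l (0.669). These 24 values had permutation p of at most 0.00117, rho between 0.542 and 0.77 (permutation p of at most 0.00608) and r between 0.411 and 0.765 without the 2 mice farthest from the gene's median, but each gene was picked as 1 of the 3 highest among 8828, and their smallest adjusted p was 0.214 (limma).

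Against library measures, 108 relations were computed (9 genes with 12 measures), and 5 had a permutation p under 0.05. None passed adjustment over the 108 relations, the smallest Benjamini-Hochberg adjusted p being 0.469, so they are given as values only. Map1lc3a had r = 0.543 with the summed skeletal muscle markers (permutation p = 0.0059, rho = 0.496, permutation p = 0.015), and r was 0.653 without the 2 mice farthest from the median of that measure. With the mitochondrial share it had r = -0.538 (permutation p = 0.00869), but rho was -0.323 (permutation p = 0.121) and r was -0.326 without 2 mice. The same gene had r = -0.444 with fibroblast markers. Becn1 had r = -0.485 with the slow fibre markers (permutation p = 0.0165), and -0.271 without 2 mice. Gabarapl1 with the slow fibre markers, given above, was the fifth. With log2 depth the absolute r was at most 0.185 (Atg4a).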

How the data were processed

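Gene expression of 25 gastrocnemius libraries (11 Control, 14 Thymol) was taken from 1 table. Per the labels and the methods of the study, the authors used STAR 2.5.3 for alignment to GRCm38 and HTSeq 0.6.1 for read counts per gene, filtered low genes and deposited log2 CPM values, with a small count added before the log. The deposited log2 values gave back whole reads (100.0% within 0.1 read), and all 8829 genes had at least 30 reads in at least 6 libraries, so lower genes were not measured. The table has 1 column per sample, each matched by library name, and no column was left out. Replicates are separate mice.

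Thymol and Control were compared with limma 3.58.1 (R 4.3.3) on the log2 values of all genes, with the mean-variance trend and Benjamini-Hochberg adjustment. Co-variation was tested in the same way with the level of 1 gene as covariate beside treatment. Pearson's r and Spearman's rho were taken after removing group means, with two-sided p from 100000 permutations of mice within groups (numpy 2.4.6). The fits were tested on simulated reads with known changes. In these, genes otherwise varied independently and the covariate had no counting error. That differs from a measured gene as covariate, so the simulation cannot check the counts for Gabarapl1. The counting SD came from the recovered reads and covers counting error only. Alternatives were another scaling, another filter, log2(CPM + 1), voom on the recovered reads, other moderation, covariates, ranks, a block by first title number and each mouse left out. The slow fibre level as a covariate of the treatment fit, ordinary regression, the different slopes, the counts for Gabarapl1 and the GC box were added after seeing the data. Genes named are the 9 measured ones, listed autophagy genes with an unadjusted p under 0.05 or else the smallest p of a list, the 3 genes with the highest r, the chosen partners, and others marked in the text as picked after their values were seen. The genes and lists were chosen with earlier results of these data known. Protein sequences were not used here, and some genes that the naming rule picks are not reported here.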

Additional observations from a re-analysis of the deposited data

How the results depend on the processing

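Between Thymol and Control, 0 genes had an adjusted p under 0.05 under 12 alternatives and in all 25 fits that left out 1 mouse. Members of the 9 with an unadjusted p under 0.05 numbered 0, and 1 (Atg4a) without the mean-variance trend and with sample weights, and 0 to 1 in the fits that left out 1 mouse. Estimates near 0 changed sign: Gabarapl1 to 0.000456 with the slow fibre level as covariate and -0.0603 to 0.0169 without 1 mouse, Becn1 to 0.000211 with quantile normalization and -0.0306 to 0.0132 without 1 mouse, and Wipi1 to 0.00282 with the block by first title number and -0.0383 to 0.000201 without 1 mouse. The cause was not tested. The other 6 estimates kept their sign. The number of pairs that co-vary was 0 throughout. Genes that co-vary with Gabarapl1 numbered 123, and 78 with ranks, 72 with ordinary regression, 68 with the mitochondrial share, 28 with the slow fibre level, 74 without the 2 mice farthest from the Gabarapl1 median and 38 to 159 without 1 mouse. The order of levels was the same by median CPM. Some first title numbers are shared by Control and Thymol mice, but 9 such replicate pairs had a mean correlation of deviations of -0.0022, beside 0.00021 for the 145 other pairs, so the number was not taken as a pairing; the block changed no call. Depth limits Atg4a most, and no gene below 30 reads was measured.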
